A study of Mus musculus with 8 samples.

Results

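The Slc25 genes encode the mitochondrial carriers, a large family of membrane transporters. All genes whose symbol is Slc25a followed by a number were taken from both deposited liver tables. That gave 42 of the 13774 genes in the Ube3a TG table and 39 of the 11773 genes in the Ube3a het table, and all 39 were among the 42. Of the 47 such symbols annotated in GENCODE mouse release M21, Slc25a18, Slc25a31, Slc25a41, Slc25a43 and Slc25a54 were listed in neither table. Slc25a2, Slc25a35 and Slc25a53 were listed in the TG table alone. Since both tables hold only genes above a low mean value, 11.2 in the TG table and 17.8 in the het table, a gene that is not listed was not analysed here.

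Liver RNA was sequenced from C57BL/6 mice fed a diet with 42% fat for 8 weeks. Mice homozygous for a Ube3a transgene, which overexpress Ube3a (TG), were compared with a WT pair, and mice with 1 knockout and 1 wild-type allele of Ube3a (het) were compared with another WT pair. Each of the 4 groups had 2 libraries, and no library was shared between the comparisons. UBE3A is a ubiquitin ligase, and the promoter that drives the transgene is not given in the sources used here. All 8 libraries came from animals on the high-fat diet.

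Carriers of this family sit mostly in the inner mitochondrial membrane and exchange small molecules between cytosol and matrix: ADP for ATP, phosphate, Krebs cycle acids, amino acids, acylcarnitines, cofactors and nucleotides. In liver they serve fatty acid oxidation, gluconeogenesis, the urea cycle and lipid synthesis, all of which move intermediates across that membrane. The proteins are made in the cytosol and inserted into the inner membrane through the TOM pore, the small TIM chaperones and the TIM22 complex.

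Libraries of the TG table held 44193275 to 47928229 recovered reads and 13171145 to 17748088 were recovered from each library of the het table. Values below are normalised read counts, scaled within each table, and a fold change is on the log2(value + 1) scale. Ube3a stood at 5991 and 5938 in TG livers, against 1187 and 1359 in WT livers (log2 fold change 2.23, limma adjusted p = 0.0586), and at 301 and 280 in het livers, against 369 and 409 in WT livers (log2 fold change −0.42, limma adjusted p = 0.129). Both differences had the direction of the label. Hepatocyte markers were all measured (10 of 10), and 12 of 12 markers each of endothelial cells and of Kupffer cells. Of 5 adipocyte markers, 0 were listed in the TG table and only Cfd in the het table. Of 5 skeletal muscle markers, only Mylpf was listed in the TG table and 0 in the het table. Whether the paired libraries of each group are separate animals is not stated in the labels. All p-values therefore measure the spread between these libraries only, and that spread could be technical.

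Levels were compared between carriers per kb of exon. The length counted every base that is exon in any annotated transcript of the gene, so the order depends on that choice. Slc25a3, for example, had a mean of 15368 normalised reads in WT livers of the TG table, over 5.55 kb, which gave 2769 per kb. Lengths of single transcripts were not tried. In WT livers of the TG table the order was led by Slc25a47, a carrier expressed mainly in liver, at 11820 normalised reads per kb, followed by Slc25a5, an ADP/ATP carrier, at 9301. Next came the glutathione carrier Slc25a39 at 7746, the dicarboxylate carrier Slc25a10 at 6494, the citrate carrier Slc25a1 at 4025 and Slc25a23, a calcium-regulated carrier of ATP-Mg and phosphate, at 3632. The same 5 carriers led in WT livers of the het table in the same order, at 3529 per kb for Slc25a47, 2939 for Slc25a5, 2514 for Slc25a39, 1446 for Slc25a10 and 1334 for Slc25a1, with the aspartate/glutamate carrier Slc25a13 sixth at 1058. At the other end stood Slc25a53 in the TG table, at 3.03 per kb in WT livers, and the pyrimidine nucleotide carrier Slc25a36 in the het table, at 2.82. Levels in WT livers of the TG table thus ran from 3.03 to 11820 per kb within the family. Not every step in the order exceeded the spread of libraries. In WT livers of the TG table Slc25a47 had 9922 and 13730 per kb and Slc25a39 had 7772 and 7720, which were apart, whereas Slc25a1 at 4416 and 3634 overlapped Slc25a23 at 4170 and 3094. The other ADP/ATP carrier of somatic tissues, Slc25a4, stood at 104 per kb in WT livers of the TG table, far under Slc25a5.

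**Figure D1:**
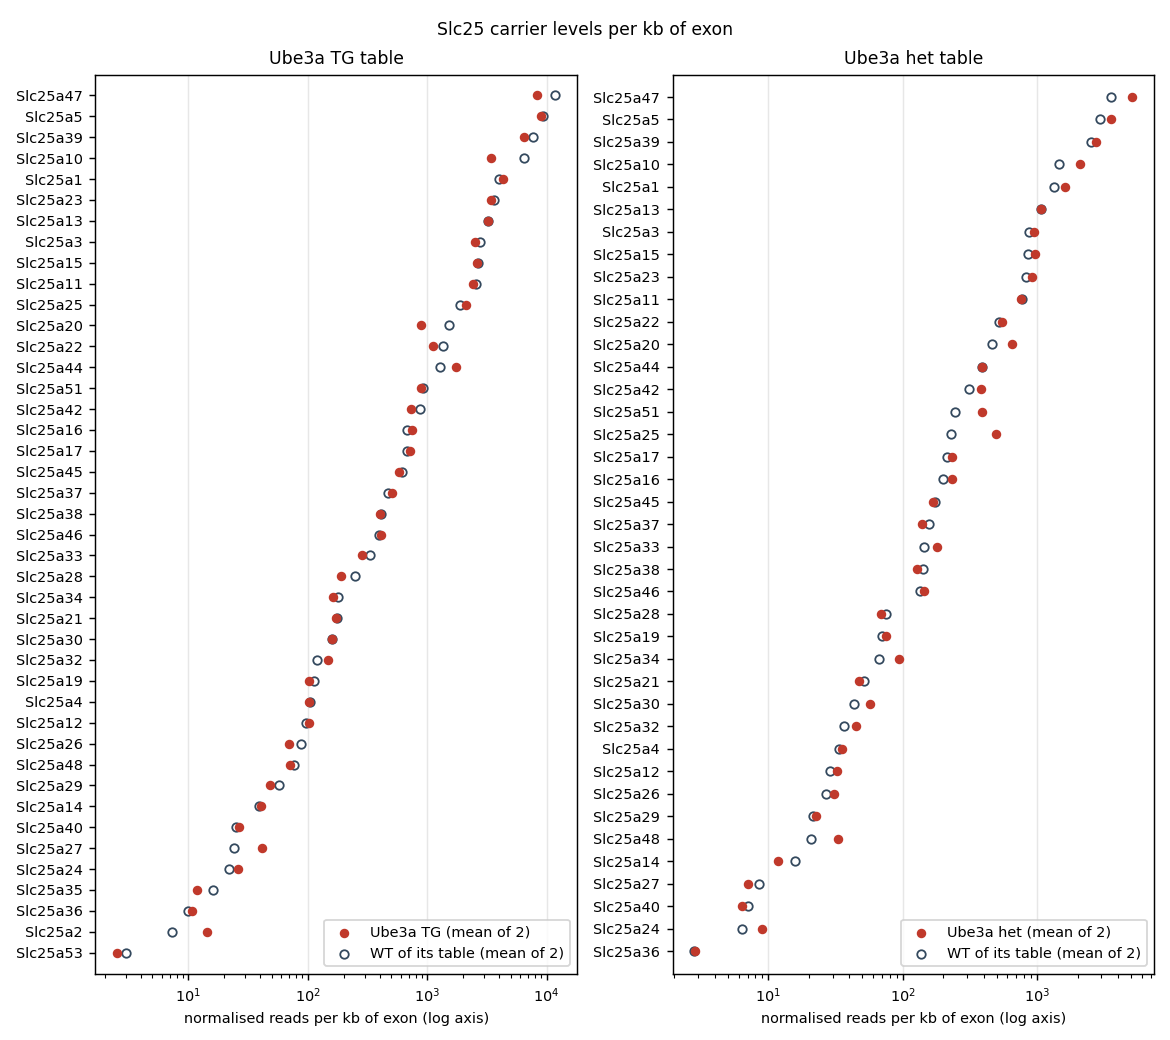
Mean normalised reads per kb of exon (horizontal, log axis) of each Slc25 carrier in the mutant livers (filled red, mean of 2 libraries) and in the WT livers of the same table (open), TG table on the left and het table on the right. Slc25a47, Slc25a5, Slc25a39, Slc25a10 and Slc25a1 stand highest in WT livers of both tables, and in the het table most filled points lie right of the open ones.

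No carrier passed the test in TG livers, and 28 of 42 had a log2 fold change below 0, with a median of −0.07 over the carriers and 0.001 over all genes. With limma and Benjamini-Hochberg adjustment, 0 of 42 carriers and 0.0% of all genes had an adjusted p under 0.05. At an unadjusted p under 0.05 there were 1 higher and 2 lower carriers, among 710 higher and 546 lower genes of the table. EdgeR and limma-voom on the recovered reads called 0 carriers and 0 genes in all. DESeq2 called 1 carrier, Slc25a10, where it called 1.38% of the genes it tested. Both TG libraries lay below both WT libraries for 9 carriers, 21.4% of them, close to the 21.6% of all genes. Both lay above for 5 carriers, 11.9% of them, against 21.8% of all genes. Without TG replicate 1, only 22 of 42 carriers were below 0. In bulk liver, fewer cells of a type and less RNA per cell cannot be told apart.

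In het livers 29 of 39 carriers had a log2 fold change above 0, with a median of 0.14 over the carriers and −0.001 over all genes. Again 0 carriers passed limma's adjusted threshold, which 1.44% of all genes passed. At an unadjusted p under 0.05 there were 9 higher and 0 lower carriers, among 1010 higher and 719 lower genes. EdgeR and limma-voom called 0 carriers, and of all 11773 genes they called 87 and 170. DESeq2 called 2 carriers, Slc25a10 and Slc25a20, and 2.45% of all genes. Both het libraries lay above both WT libraries for 18 carriers, 46.2% of them, against 24.3% of all genes, and below for 7 carriers, 17.9%, against 23.7%. When each library was left out in turn, 25 to 28 of the 39 carriers were above 0. The carriers together took 0.533% and 0.565% of all values in het livers, against 0.444% and 0.461% in WT livers. In TG livers they took 0.388% and 0.488%, against 0.506% and 0.539% in WT livers, so the groups did not overlap in either table. Such shares weigh abundant carriers most. Slc25a10, Slc25a25 and Slc25a47, picked after their values were seen, summed to 24033 and 28606 in het livers, against 16343 and 18272 in WT livers. The other carriers summed to 57489 and 57031 in het livers, against 50846 and 50622 in WT livers.

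**Figure D2:**
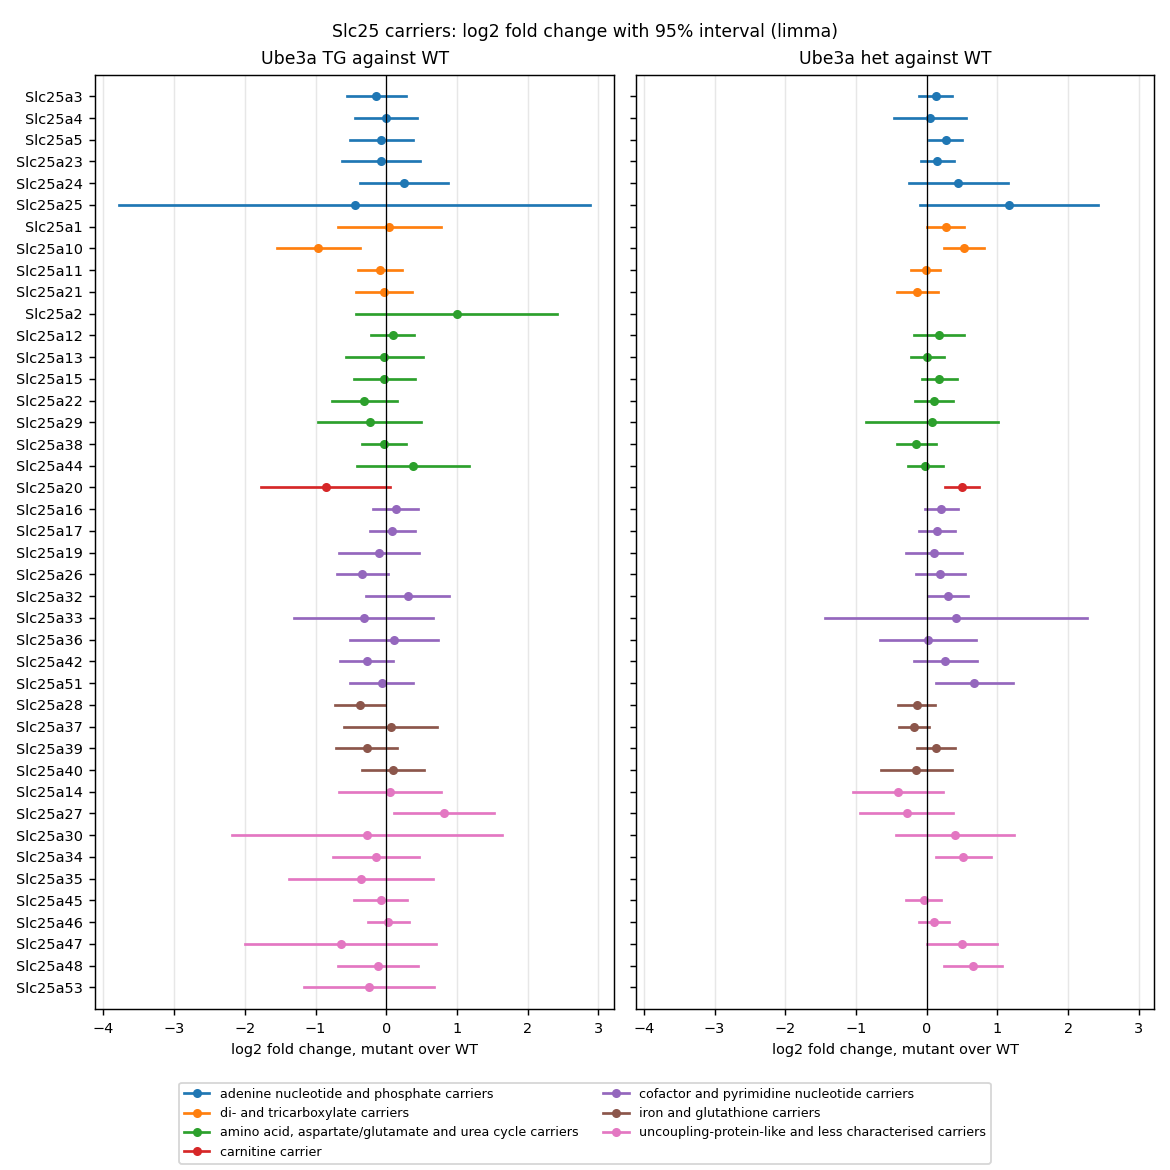
Log2 fold change of each carrier, mutant over the WT pair of its table (horizontal), with its 95% interval from limma, TG on the left and het on the right, coloured by role. All 6 adenine nucleotide and phosphate carriers and all 9 cofactor carriers lie above 0 in het, whereas in TG the points lie on both sides of 0 and 0 carriers pass the adjusted threshold in either panel.

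Slc25a10 and Slc25a20 had the smallest p in het livers, and Slc25a10 that in TG livers. Slc25a10 exchanges malate and succinate for phosphate across the inner membrane. Slc25a20 brings acylcarnitines into the matrix in exchange for free carnitine and is required for oxidation of long-chain fatty acids. The bases before their RefSeq starts are shown because these carriers had low values in TG and high values in het. They are the 250 bases that end at the RefSeq transcript start (GRCm38.p6), 5′ to 3′ on the + strand, at chr11:120491587-120491836 for Slc25a10 and chr9:108661886-108662135 for Slc25a20. Capitals mark a match, on either strand, to the GC box (GGGCGG), the CCAAT box, the E-box (written CACGTG), the TATA box (written TATAAA) or the nuclear receptor half-site (written AGGTCA).
Slc25a10: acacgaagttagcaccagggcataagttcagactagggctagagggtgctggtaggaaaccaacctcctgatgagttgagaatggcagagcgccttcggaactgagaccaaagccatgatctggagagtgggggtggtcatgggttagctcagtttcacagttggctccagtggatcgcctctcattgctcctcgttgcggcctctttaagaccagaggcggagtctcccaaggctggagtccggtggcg
Slc25a20: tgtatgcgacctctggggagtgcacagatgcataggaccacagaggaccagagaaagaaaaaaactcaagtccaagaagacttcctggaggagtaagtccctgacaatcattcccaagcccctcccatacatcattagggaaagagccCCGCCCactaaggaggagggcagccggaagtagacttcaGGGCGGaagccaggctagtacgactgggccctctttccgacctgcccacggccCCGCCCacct
The Slc25a20 window held the GC box 3 times, counting both strands, and the Slc25a10 window held none of the 5 motifs. In GENCODE Slc25a20 starts at 108662088, within its window, so the last GC box marked there lies inside the gene by that annotation. RefSeq windows were at hand for 32 carriers, 7 of which had several, and a carrier or gene was counted here if any of its windows held the motif. A GC box was found in 24 of the 32 carriers (against 35.4% of 27025 genes) and a CCAAT box in 18 (56.2%, against 37.5%). The E-box was found in 6 carriers (18.8%, against 6.86% of genes), and the half-site in 4 carriers (12.5%, against 15.8%). The TATA box was found in 1 carrier, Slc25a21 (3.12%, against 14.3% of genes). The 32 carriers are limited to those listed in the TG table, whereas the 27025 genes were not limited to genes listed there. The part of that difference in these shares was not tested. These are matches of letters, with no measure of binding.

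Slc25a10 (ENSMUSG00000025792, chromosome 11, 120491840 to 120499187, + strand, GRCm38) had 9458 and 14009 normalised reads in TG livers, against 21989 and 22884 in WT livers. Both TG libraries lay far below the WT pair, which differed little. The log2 fold change was −0.96 (SE 0.23, 95% interval −1.55 to −0.38), a 1.95-fold lower level, with limma's adjusted p = 0.486 and DESeq2's adjusted p = 0.0131. In het livers it had 7365 and 6985, against 4524 and 5467 in WT livers. Both het libraries stood above both WT libraries, by 1.44-fold (log2 fold change 0.53, SE 0.12, 95% interval 0.25 to 0.81), with limma's adjusted p = 0.0925 and DESeq2's adjusted p = 0.0223. Leaving out any single library kept the difference between −1.25 and −0.68 in TG and between 0.39 and 0.66 in het. A predicted gene on the opposite strand, Gm11788, covers 6.6% of its exon length, and the sources used here do not say whether counting used strand.

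Slc25a20 (ENSMUSG00000032602, chromosome 9, 108662088 to 108684641, + strand) had 2878 and 5769 in TG livers, against 7604 and 7167 in WT livers. Both TG libraries were lower than the WT pair, and TG replicate 1 was much lower than TG replicate 2. The log2 fold change was −0.86 (SE 0.35, 95% interval −1.77 to 0.06, limma adjusted p = 0.559). It was −0.36 without TG replicate 1 and −1.36 without TG replicate 2. In het livers the values were 2959 and 3325, against 2290 and 2156 in WT livers. The groups did not overlap, and the log2 fold change was 0.50 (SE 0.11, 95% interval 0.26 to 0.74), with limma's adjusted p = 0.0683 and DESeq2's adjusted p = 0.0210. In the role groups used here, Slc25a20 is the only entry of the carnitine carrier group.

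**Figure D3:**
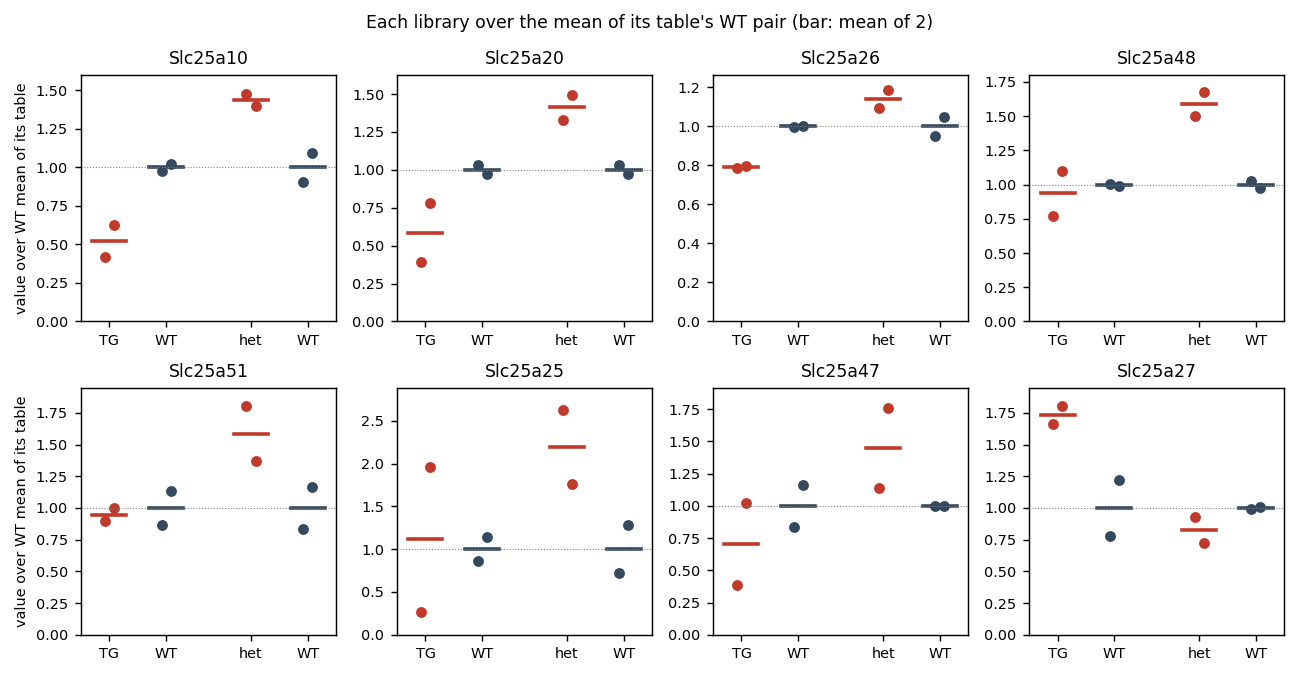
Value of each library divided by the mean of the WT pair of its own table (vertical, from 0) for 8 carriers, with bars at the mean of 2 libraries: TG and its WT on the left, het and its WT on the right of each panel. Slc25a10, Slc25a20 and Slc25a26 lie below the WT pair in both TG libraries and above it in both het libraries, and the TG points of Slc25a25 and Slc25a47 are far apart.

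The other di- and tricarboxylate carriers stayed closer to WT. The citrate carrier Slc25a1, which supplies cytosolic citrate for lipid synthesis, had 3754 and 3209 in het livers, against 2804 and 2970 in WT livers (log2 fold change 0.27, limma adjusted p = 0.324). In TG livers it had 11627 and 6876, against 9557 and 7864 in WT livers, so the groups overlapped. The oxoglutarate carrier Slc25a11 of the malate-aspartate shuttle had a log2 fold change of −0.09 in TG (95% interval −0.40 to 0.23) and of −0.01 in het (−0.22 to 0.19).

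All 6 measured carriers of adenine nucleotides and phosphate had positive log2 fold changes in het livers (median 0.21), against 49.9% of all genes. In 5 of them (83.3%, against 24.3% of all genes) both het libraries lay above both WT libraries. In TG livers 1 of 6 was positive (median −0.07). Slc25a5, the main ADP/ATP carrier in these livers by level, had 5986 and 5653 in het livers, against 4792 and 4884 in WT livers, with a log2 fold change of 0.27 (SE 0.10, limma adjusted p = 0.294). In TG livers its values were 16074 and 13261, against 15950 and 14670 in WT livers, a log2 fold change of −0.07 (95% interval −0.51 to 0.38). For the phosphate carrier Slc25a3 the log2 fold change was −0.14 in TG and 0.13 in het, and Slc25a23 had −0.07 in TG and 0.15 in het.

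Slc25a25, a calcium-regulated ATP-Mg and phosphate carrier, had the widest gap between the TG libraries. In het livers it had 4681 and 3133, against 1279 and 2279 in WT livers. The groups did not overlap, and the log2 fold change was 1.16 (SE 0.41, 95% interval −0.09 to 2.42, limma adjusted p = 0.364), the highest point estimate of the family in het. In TG livers it had 3986 and 29036, against 12695 and 16944 in WT livers. The TG libraries lay on opposite sides of the WT pair, and the log2 fold change of −0.45 had a 95% interval of −3.78 to 2.89. Its direction was not settled, since edgeR and DESeq2 gave 0.15, and it was 0.99 without TG replicate 1 and −1.88 without TG replicate 2.

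Among the amino acid, aspartate/glutamate and urea cycle carriers, 3 of 8 had positive log2 fold changes in TG (median −0.03) and 5 of 7 in het (median 0.08). Slc25a13, the liver form of the aspartate/glutamate carrier, stood near WT, with a log2 fold change of −0.03 in TG (95% interval −0.57 to 0.52) and of 0.01 in het (−0.22 to 0.24). The ornithine carrier of the urea cycle, Slc25a15, had −0.03 in TG and 0.18 in het. Slc25a22, a glutamate carrier, had 5717 and 7580 in TG livers, against 8354 and 7996 in WT livers (log2 fold change −0.31, limma adjusted p = 0.626), and 0.10 in het. Slc25a2, a second ornithine carrier, was measured in the TG table alone, at 22.4 and 17.0 in TG livers, against 14.0 and 6.06 in WT livers. Its log2 fold change of 1.00 (SE 0.56, limma adjusted p = 0.618) rests on 6 to 23 reads per library.

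All 9 measured carriers of cofactors and pyrimidine nucleotides had positive log2 fold changes in het livers (median 0.21), against 49.9% of all genes. In 5 of them (55.6%, against 24.3% of all genes) both het libraries lay above both WT libraries. In TG livers 4 of 9 were positive (median −0.07). Slc25a51, which carries NAD+ into the matrix, had 2426 and 1838 in het livers, against 1116 and 1571 in WT livers. The groups did not overlap (log2 fold change 0.67, SE 0.21, limma adjusted p = 0.264), while in TG livers its values of 4619 and 5105 lay within the WT range of 4434 to 5821. Slc25a32, linked to folate and FAD transport, had 746 and 1050 in TG livers, against 622 and 829 in WT livers, groups that overlapped (log2 fold change 0.30, limma adjusted p = 0.698; 0.05 to 0.55 when a library was left out). In het livers Slc25a32 had 279 and 268, against 235 and 209 in WT livers, groups that were apart (log2 fold change 0.30, limma adjusted p = 0.310). Slc25a42, a coenzyme A carrier, had 3932 and 4774 in TG livers, against 5231 and 5282 in WT livers (log2 fold change −0.28, limma adjusted p = 0.602), and a log2 fold change of 0.26 in het.

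Slc25a26, which brings S-adenosylmethionine into the matrix, had 333 and 339 in TG livers, against 423 and 426 in WT livers. Libraries of each group were nearly equal and the groups were apart (log2 fold change −0.34, SE 0.14, 95% interval −0.69 to 0.02, limma adjusted p = 0.557). In het livers it had 141 and 153, against 123 and 135 in WT livers (log2 fold change 0.19, SE 0.15, limma adjusted p = 0.606).

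Iron and glutathione carriers were the only role group that had a negative median in both comparisons, −0.11 in TG and −0.15 in het. These are medians of 4 carriers, of which 2 were above 0 in TG and 1 in het. Their summed level was 21042 and 22313 in TG livers, against 25293 and 25369 in WT livers. In het livers it was not lower, at 8380 and 9103, against 7914 and 8527 in WT livers. Slc25a28, mitoferrin 2, had 699 and 722 in TG livers, against 848 and 1002 in WT livers (log2 fold change −0.38, SE 0.14, limma adjusted p = 0.541), and 254 and 258 in het livers, against 294 and 273 in WT livers (log2 fold change −0.14, limma adjusted p = 0.603). Both mutants were below their WT pair in every library, and so was Slc25a11. Taken 1 table at a time, this held for 21.6% of all genes in TG and 23.7% in het. For Slc25a37, mitoferrin 1, the log2 fold change was 0.06 in TG and −0.18 in het. Slc25a39 had 16290 and 19055 in TG livers, against 21419 and 21277 in WT livers (log2 fold change −0.28, limma adjusted p = 0.641), and a log2 fold change of 0.13 in het. Slc25a40, related to Slc25a39, had 225 and 222.4 in TG livers, against 198 and 222.3 in WT livers, and 49.1 and 57.51 in het livers, against 57.53 and 60.5 in WT livers. Its groups did not overlap but came within 1 normalised read of each other in both tables.

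The uncoupling-protein-like and less characterised carriers had 3 of 10 positive log2 fold changes in TG (median −0.13) and 5 of 8 in het (median 0.25). Slc25a27, also named UCP4 and known from brain, was low in liver, with 157 and 170 in TG livers, against 74.0 and 115 in WT livers. The groups were apart (log2 fold change 0.82, SE 0.28, 95% interval 0.11 to 1.53, limma adjusted p = 0.535). In het livers it had 31.0 and 24.2, against 33.2 and 33.8 in WT livers, from 21 to 36 reads a library (log2 fold change −0.28, limma adjusted p = 0.697). Slc25a48, a carrier linked to choline, had 104 and 116 in het livers, against 71.2 and 67.7 in WT livers (log2 fold change 0.66, SE 0.18, limma adjusted p = 0.136). In TG livers it had 199 and 283, which lay on either side of 259 and 256 in WT livers. Slc25a34 had 234 and 267 in het livers, against 203 and 150 in WT livers (log2 fold change 0.52, SE 0.17, limma adjusted p = 0.209).

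Slc25a47, the highest carrier per kb in WT livers of both tables, had 11986 and 18488 in het livers, against 10540 and 10526 in WT livers. The WT pair was nearly equal and both het libraries were above it, by unequal amounts (log2 fold change 0.50, SE 0.20, 95% interval 0.01 to 0.99, limma adjusted p = 0.329). In TG livers it had 13719 and 36116, against 29617 and 40976 in WT livers, so the groups overlapped (log2 fold change −0.65, SE 0.51, limma adjusted p = 0.711).

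The 22 carriers that the rule for named genes did not select had log2 fold changes from −0.36 for Slc25a35 to 0.38 for Slc25a44 in TG, and 20 of them were measured in het, from −0.41 for Slc25a14 to 0.45 for Slc25a24. Their lowest limma adjusted p was 0.711 in TG and 0.387 in het. Slc25a35 shares 31.3% of its exon length with Rangrf on the opposite strand, and Slc25a33 shares 14.9% with the predicted gene Gm13068, so their reads may not all be their own.

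The TG effect minus the het effect was tested for the 39 carriers in both tables, in 1 limma fit of all 8 libraries. It was below 0 for 31 carriers and above 0 for 8, with a median of −0.21, against 0.014 over all shared genes. With limma 0 carriers passed the adjusted threshold, which 0.434% of the shared genes passed. At an unadjusted p under 0.05 there were 1 higher and 5 lower carriers, among 990 higher and 973 lower genes. EdgeR and limma-voom called 0 carriers, and of all 11754 shared genes they called 40 and 30. DESeq2 called 2 carriers, Slc25a10 and Slc25a20, and 3.16% of the shared genes. Slc25a10 had the smallest p, with a difference of −1.49 (SE 0.28, 95% interval −2.13 to −0.86, limma adjusted p = 0.0721, DESeq2 adjusted p = 5.64e-05). Slc25a20 followed at −1.35 (SE 0.41, limma adjusted p = 0.199, DESeq2 adjusted p = 0.0317). All 6 adenine nucleotide and phosphate carriers and 8 of 9 cofactor carriers had a difference below 0. The difference was −0.53 for Slc25a26 (limma adjusted p = 0.225), 1.10 for Slc25a27 (0.225), −0.77 for Slc25a48 (0.233) and −0.74 for Slc25a51 (0.283).

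Of the 39 carriers, 21 lay below 0 in TG and above 0 in het (53.8%, against 28.9% of all shared genes). A further 5 lay above 0 in TG and below in het, 8 above in both and 5 below in both. Across these 39 carriers the log2 fold changes in TG and het had Pearson's r = −0.481 and Spearman's rho = −0.415, against −0.316 and −0.256 over all shared genes, as a description across genes that share their libraries. Carriers with both het libraries above WT and both TG libraries below WT were Slc25a10, Slc25a20 and Slc25a26, 7.69% of the 39, near the 7.86% of all shared genes. Carriers with the opposite pattern were Slc25a27 and Slc25a40, 5.13%, against 7.23% of all shared genes. Most markers of endothelial cells and of Kupffer cells lay on the same sides of 0 as most of the family. All 12 endothelial markers were below 0 in TG and above 0 in het. Their summed level was 17634 and 17594 in TG livers, against 21119 and 21247 in WT livers, and 6238 and 6508 in het livers, against 5328 and 5656 in WT livers. Of 12 Kupffer cell markers, 11 were below 0 in TG (sums 19925 and 27356 in TG livers, against 33113 and 30667 in WT livers) and 10 above 0 in het (8811 and 12197 in het livers, against 7653 and 10295 in WT livers). In het livers Lyve1 rose to 280 and 276, against 126 and 171 in WT livers (limma adjusted p = 0.0403), and Gpr182 to 317 and 367, against 208 and 221 in WT livers (limma adjusted p = 0.0442), both being endothelial markers. The part of these cells in the carriers' values was not tested. Hepatocyte markers had 8 of 10 above 0 in TG (median 0.17) and 5 of 10 in het (median −0.01). Stellate cell markers had 7 of 12 above 0 in TG and 5 of 12 in het, lymphocyte markers 1 of 9 in TG and 1 of 3 in het, and cholangiocyte markers 1 of 5 in TG and 1 of 1 in het.

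**Figure D4:**
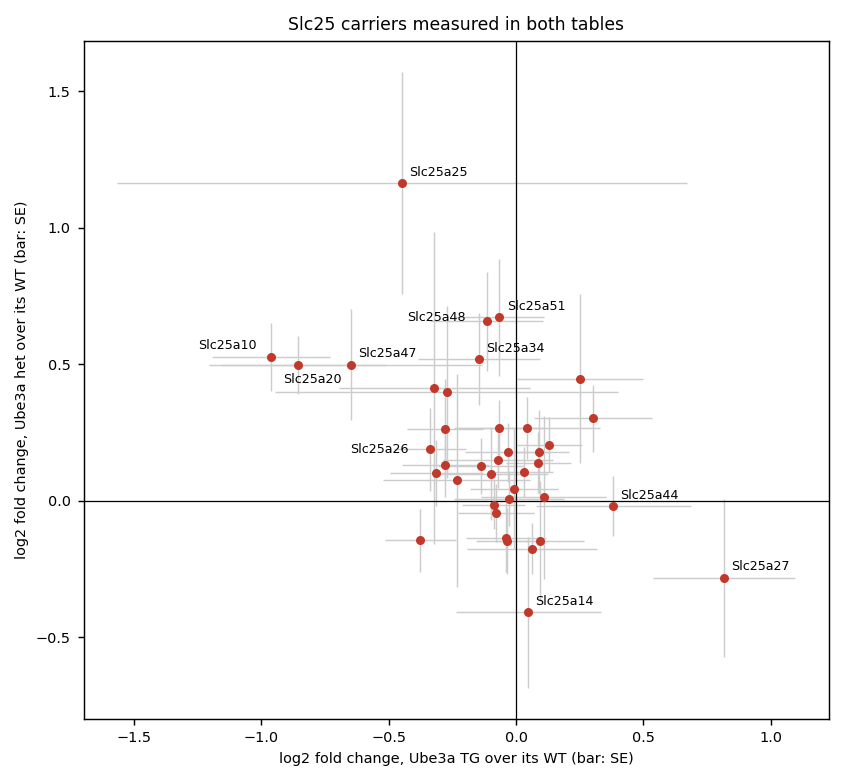
Log2 fold change in het (vertical) against that in TG (horizontal) for the 39 carriers in both tables, each over its own WT pair, with grey bars for the SE. The upper left of the plot, higher in het and lower in TG, holds 21 of the 39 points, and Slc25a10 and Slc25a20 lie at its left.

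The TG libraries differed from each other in a part of the family, a share near that of all genes. Between the 2 TG libraries, 8 of 42 carriers differed by more than 1.5-fold (19.0%, against 17.7% of all genes), and between their WT libraries 4 did (9.52%, against 12.2%). Slc25a25, Slc25a30, Slc25a47, Slc25a33 and Slc25a20 were lower in TG replicate 1. Slc25a30, an uncoupling-protein-like carrier, had 322 and 1128 in TG livers, and the pyrimidine nucleotide carrier Slc25a33 had 348 and 727. Slc25a44, which carries branched-chain amino acids, Slc25a1 and Slc25a37 were higher in TG replicate 1. Slc25a44 had 8060 and 4464 in TG livers, against 4914 and 4315 in WT livers. Slc25a10, Slc25a25 and Slc25a47 were picked for a sum after their values were seen. Their sum was 27163 and 79161 in TG livers, against 64301 and 80804 in WT livers. The sum of the other 39 carriers was 150454 and 155249 in TG livers, against 166970 and 160055 in WT livers. Those others include Slc25a30, Slc25a33, Slc25a20 and Slc25a44, while Slc25a10 differed by only 1.48-fold between the TG libraries. The contrast of these sums therefore follows in part from the choice and is no test. Without TG replicate 2, limma called 3 carriers as lower in TG, namely Slc25a10 (log2 fold change −1.25, adjusted p = 0.0475), Slc25a20 (−1.36, adjusted p = 0.0356) and Slc25a25 (−1.88, adjusted p = 0.0472). That fit called 146 genes in all, and its single TG library is assumed to vary like the others. Without TG replicate 1 limma called 0 carriers and 6 genes in all, and the log2 fold changes were −0.68 for Slc25a10, −0.36 for Slc25a20 and 0.99 for Slc25a25. Between the 2 het libraries 3 of 39 carriers differed by more than 1.5-fold (7.69%, against 6.07% of all genes). Between their WT libraries 4 did (10.3%, against 6.57%), with the widest gap for Slc25a33, at 377 and 164 in WT livers.

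**Figure D5:**
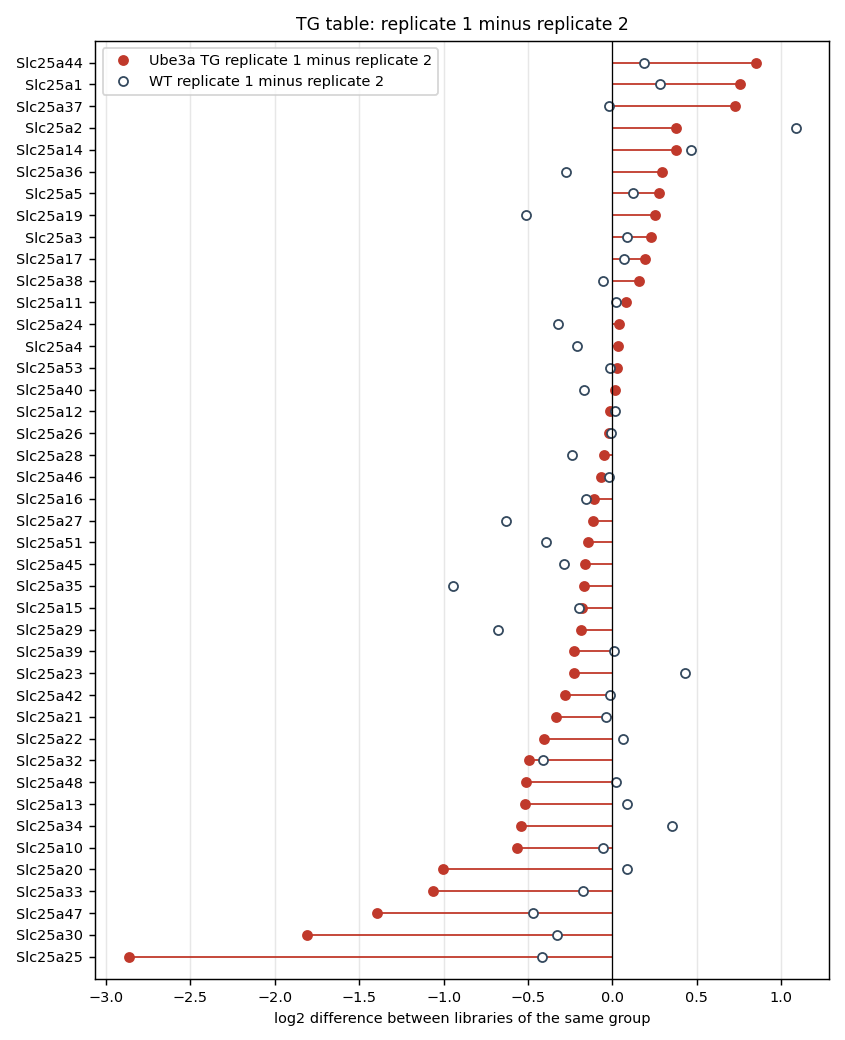
Log2 difference between replicate 1 and replicate 2 (horizontal) for each carrier of the TG table, within TG livers (filled red) and within their WT livers (open). Slc25a25, Slc25a30 and Slc25a47 have the widest gaps between TG libraries, with replicate 1 lower.

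Genes around the carriers were taken from lists of related functions. Over all genes limma called 0.0% in TG and 1.44% in het, so 0 calls in lists of this size say little. Of 15 measured enzymes and transporters that work with carriers, 4 had positive log2 fold changes in TG (median −0.14) and 12 in het (median 0.26). Of these, 0 were called in TG and 1 in het. The called gene was Slc22a5, the carnitine transporter of the plasma membrane, which rose in het livers to 1179 and 1316, against 771 and 867 in WT livers (log2 fold change 0.61, SE 0.11, limma adjusted p = 0.0384). In TG livers Slc22a5 had 1002 and 2815, against 3227 and 2694 in WT livers (log2 fold change −0.81, limma adjusted p = 0.675). Carnitine acetyltransferase, Crat, had 2505 and 3634 in het livers, against 1514 and 1221 in WT livers (log2 fold change 1.15, limma adjusted p = 0.0884). In TG livers Crat had 2030 and 3877, against 5947 and 4926 in WT livers (log2 fold change −0.95, limma adjusted p = 0.541). The carnitine genes Slc22a5 and Crat were thus on the same sides of WT as Slc25a20 on average, but of these only Slc22a5 in het passed the test, and Slc22a5 in TG replicate 2 lay within the WT range. Got1, the cytosolic aspartate aminotransferase, had a log2 fold change of 0.43 in TG (limma adjusted p = 0.584) and of 0.38 in het (limma adjusted p = 0.165). It was thus higher in both mutants, and its groups did not overlap in either table.

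The import machinery of carriers had 1 of 12 positive log2 fold changes in TG (median −0.14) and 5 of 12 in het (median −0.01). Of these genes 0 were called, where limma called 0.0% of all genes in TG and 1.44% in het. Timm22, the core of the TIM22 insertase, had a log2 fold change of −0.31 in TG (limma adjusted p = 0.550), and the outer membrane pore Tomm40 had −0.28. In het the smallest p belonged to the carrier receptor Tomm70a, at 0.20, and to Timm8a1, at −0.31. Of family members under other symbols, Ucp2, Mtch1 and Mtch2 were measured, all below 0 in TG (median −0.08) and 2 of 3 above 0 in het (median 0.18), with 0 called. Ucp2, an uncoupling protein that is abundant in macrophages, had 850 and 1213 in TG livers, against 1568 and 1745 in WT livers (log2 fold change −0.70, limma adjusted p = 0.518), and a log2 fold change of 0.22 in het. Mtch1 had −0.08 in TG, and Mtch2, known from human cells as an outer membrane insertase, had 0.18 in het.

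Other solute paths of mitochondrial membranes had 6 of 13 positive log2 fold changes in TG (median −0.04) and 10 of 13 in het (median 0.05). Of these genes 0 were called, where limma called 0.0% of all genes in TG and 1.44% in het. The serine transporter Sfxn1 had 5265 and 4599 in TG livers, against 6450 and 6259 in WT livers (log2 fold change −0.37, limma adjusted p = 0.541), and 2658 and 2282 in het livers, against 1541 and 1950 in WT livers (log2 fold change 0.51, limma adjusted p = 0.137). Letm1, a cation exchanger, had a log2 fold change of 0.25 in het. Regulators of mitochondrial biogenesis had 4 of 9 positive in TG (median −0.05) and 5 of 9 in het (median 0.01), with 0 called. The coactivator Ppargc1a had 905 and 947 in TG livers, against 525 and 529 in WT livers, groups that were well apart (log2 fold change 0.81, limma adjusted p = 0.267), and 0.01 in het. Gabpa, a factor for nuclear genes of mitochondrial proteins, had 0.35 in TG. In het the fatty acid receptor Ppara had 0.39 (limma adjusted p = 0.148) and Nrf1 −0.38 (0.365). For the difference of effects 0 genes of these 5 lists were called, against 0.434% of all shared genes. The lowest adjusted p in each list belonged to Ppargc1a (0.80, limma adjusted p = 0.104), Sfxn1 (−0.88, 0.128), Crat (−2.10, 0.133), Timm22 (−0.39, 0.270) and Ucp2 (−0.93, 0.353). Next in their lists came Ppara at −0.52, Letm1 at −0.55, Agk at −0.47 and Mtch2 at −0.25.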

How the data were processed

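Liver RNA was prepared with TRIzol and TruSeq reagents, per the labels' protocols, for 8 libraries in 4 groups of 2. Tools listed in the submitters' processing notes are DESeq2, featureCounts and Subread 1.5.2, with the builds mm10 and GRCm38, and without roles. Which annotation served, and whether strand was used, is not given in the sources used here. What the authors deposited is a signal, namely reads of each gene scaled by 1 factor per library: from the values, all entries are whole multiples of the worth of 1 read, within 0.001. The reads so recovered were used only in count-based alternatives.

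Mutant and WT libraries of the same table were compared with limma 3.58.1 (R 4.3.3; trended, robust eBayes) on log2(value + 1), Benjamini-Hochberg adjusted over all genes, with a threshold of 0.05. The difference of effects was fitted over all 8 libraries and 11754 shared genes. Exon lengths and positions came from GENCODE M21 (GRCm38), promoters from RefSeq (GRCm38.p6), with 32 of 42 carriers matched by symbol. Alternatives were edgeR 4.0.16, DESeq2 1.42.0, limma-voom, pseudocounts, scalings, a floor on the mean, a single fit, a replicate block and leaving out each library. Summaries used pandas in Python. The limma fits of TG and het were also run on simulated counts. Their spread between libraries was a fixed setting, not taken from these data, so that run does not measure power here. Named carriers are those of smallest p (10 in TG, 10 in het, 6 in the difference), the 6 highest per kb, and those apart in both tables in opposite directions; of related lists, called genes or the 2 of smallest p per comparison. Other carriers were named after their values were seen. Members and lists were chosen with earlier results of these data known. Some genes that the rule selects are not reported here.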

Additional observations from a re-analysis of the deposited data

Results flagged for a closer look

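The TG effect differed from the het effect in the joint limma test for Ube3a itself, by 2.65 on the log2 scale (adjusted p = 0.00157), and for the endothelial marker Gpr182, by −1.07 (adjusted p = 0.0457). Gpr182 had 760 and 746 in TG livers, against 1034 and 964 in WT livers, and 317 and 367 in het livers, against 208 and 221 in WT livers. No carrier of the family passed that test with limma, and its smallest adjusted p was 0.0721, for Slc25a10.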

How the results depend on the processing

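No carrier's call was lost, since limma called 0. With DESeq2, 1 carrier was called in TG, 2 in het and 2 for the difference of effects, of 186, 289 and 371 genes called in all; edgeR called 0, 87 and 40 genes in all. Leaving out each library gave 0 to 3 carriers in TG, 0 in het, and 0 to 4 for the difference. For the difference, 1 was called without TG replicate 1 (Slc25a10) and 4 without TG replicate 2 (Slc25a10, Slc25a20, Slc25a47 and Slc25a44, the last higher). Over all genes, leaving out TG replicate 2 raised the calls in TG from 0 to 146 and for the difference from 51 to 643. Leaving out 1 library gave 61 to 173 calls in het, against 169, and robust estimates off gave 93. All 8 libraries in a single fit gave 25 calls in TG and 0 in het. The cause was not tested. The carriers' median in TG ran from −0.13 to −0.02 when a library was left out, and 18 of 42 carriers changed sign without TG replicate 1. When a library was left out, the log2 fold change in TG ran from −1.88 to 0.99 for Slc25a25, −1.34 to 0.05 for Slc25a47, −0.42 to 0.12 for Slc25a34, −0.37 to 0.14 for Slc25a48, −0.33 to 0.42 for Slc25a1, −0.29 to 0.14 for Slc25a23, −0.28 to 0.23 for Slc25a13, −0.26 to 0.13 for Slc25a51 and −0.21 to 0.07 for Slc25a5. In het it ran from −0.04 to 0.25 for Slc25a22 and −0.02 to 0.04 for Slc25a13, which had −0.01 with totals without the 20 most abundant genes. The difference of effects ran from −0.60 to 0.16 for Slc25a1, −0.29 to 0.22 for Slc25a13 and −0.25 to 0.25 for Slc25a32, which was 0.00 and turned to 0.01 with edgeR. Slc25a25 in TG had 0.15 with edgeR and DESeq2. In het the median of 0.14 became 0.13 with edgeR and DESeq2, 0.12 with totals without the 20 most abundant genes and 0.15 with a mean of at least 50, and ran from 0.13 to 0.17 when a library was left out. The median of the difference, −0.21, ran from −0.23 to −0.10. With a replicate block 0 carriers were called and the medians were −0.07, 0.14 and −0.21; same-numbered libraries correlated at 0.107 in TG and −0.043 in het, and the labels do not say that the numbers pair them. With 2 libraries a group, carriers under about 100 reads have wide intervals, and so do some with many reads whose libraries differ. The SE was 1.12 for Slc25a25 in TG, at 4090 to 28988 reads a library.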
